A study of Mus musculus with 4 samples.

Results

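The Id genes Id1, Id2, Id3 and Id4 were followed over wide windows, each taking in the gene body in GENCODE M21 (mm10) and 100 kb to either side, and every deposited Smad1 peak in these windows was used. These are 4 of the 21938 protein-coding genes of the annotation, and their windows cover 812 kb. The peaks came from Smad1 ChIP–seq of mouse EBs, the aggregates that ES cells form as they differentiate. The ES line was GFP-Bry (strain C57BL/6), a reporter line for the mesoderm gene Brachyury. The EBs were dissociated and reaggregated, kept for 24 h with the vehicle DMSO or with IWR-1 at 10 µM, which inhibits Wnt signalling, and collected on day 4. For each treatment 1 ChIP and 1 input library were sequenced, so the treatments could not be compared against a spread between replicates and no test between them was made. The Id windows held 5 common DMSO sites, 8 DMSO MACS peaks, 19 DMSO QESEQ peaks, 14 IWR-1 QESEQ peaks and 6 peaks of a second MACS list, of 10466, 15927, 26070, 16261 and 7815 in all.

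Id proteins are helix-loop-helix proteins without a DNA-binding region. They pair with E proteins and keep these from activating lineage genes, and in mesoderm they are known targets of BMP signalling. BMP receptors phosphorylate Smad1, which enters the nucleus with Smad4 and binds GC-rich elements such as GGCGCC and GGAGCC, while Smad4 is best known for CAGAC and its palindrome GTCTAGAC. A GC-rich element beside a CAGAC element is the form of the BMP response element known from the Id1 promoter.

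The labels and the contents of the lists do not match for 4 of the 5 lists. The DMSO lists were recognised as the parents of the common DMSO sites, the label of the IWR-1 ChIP stands on the IWR-1 QESEQ list, and the second MACS list was given to IWR-1 by elimination. Shared edges bear on that step. In the second MACS list, 424 of 7815 peaks (5.43%) had the start of an IWR-1 QESEQ peak and an end exactly 51 bp further, the tag size given to MACS, against 0 for the DMSO QESEQ list. In the DMSO MACS list this held for 1884 of 15927 peaks (11.8%) against the DMSO QESEQ list and for 0 against the IWR-1 QESEQ list. In the Id windows all 6 peaks of the second MACS list had such a match with the IWR-1 QESEQ list.

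The sequence shared by the Id genes was a GC-rich element and a CAGAC element at a fixed distance. GGCGCC followed after exactly 5 bases by GTCTG, which is CAGAC read on the other strand, occurred 7 times in the 4 windows, at least once at each Id gene. The 7 stretches are shown because they are this shared sequence, with 12 bases to either side, both elements in capitals, read 5′ to 3′ on the strand named and placed by distance from the start of the main transcript.
Id1 +3.23 kb, chr2:152739459-152739498, plus strand: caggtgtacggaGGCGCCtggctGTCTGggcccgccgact
Id2 +3.04 kb, chr12:25093031-25093070, minus strand: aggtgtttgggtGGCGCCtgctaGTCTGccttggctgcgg
Id2 -2.77 kb, chr12:25098841-25098880, minus strand: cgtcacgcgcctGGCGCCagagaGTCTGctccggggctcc
Id3 -2.95 kb, chr4:136140528-136140567, plus strand: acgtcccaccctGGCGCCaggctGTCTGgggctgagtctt
Id3 +1.30 kb, chr4:136144781-136144820, plus strand: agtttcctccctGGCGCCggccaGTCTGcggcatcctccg
Id3 +4.49 kb, chr4:136147969-136148008, plus strand: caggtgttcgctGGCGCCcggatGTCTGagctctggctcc
Id4 +1.67 kb, chr13:48262878-48262917, plus strand: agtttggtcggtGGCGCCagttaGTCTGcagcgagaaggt

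This arrangement was looked for after the sequences of the Id sites had been seen, so its counts are a description. In mm10 it occurred 169 times, and 7 of these lay in the Id windows. Of 7774 coding genes with a body under 10 kb, 199 (2.56%) had at least 1 match within 100 kb and 22 (0.283%) had at least 2. Id3 was the single gene among them with 3 matches, and Id2 had 2, while Id1 and Id4 had 1 each. The matches near Id3 lay upstream, in intron 2 and downstream of the gene, and the match at Id4 lay in its intron 2. Those at Id1 and Id2 were intergenic.

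Smad1 peaks covered 4 of the 7 matches. Peaks of MACS and QESEQ from DMSO-treated cells were merged into DMSO sites where they overlapped by at least 1 bp, which gave 30795 sites in the genome and 21 in the Id windows. The matches at Id2 -2.77 kb and Id3 -2.95 kb lay in common DMSO sites and under calls of both IWR-1 lists. The matches at Id3 +1.30 kb and +4.49 kb lay under DMSO QESEQ peaks alone. No list had a peak over the matches at Id1 +3.23 kb, Id2 +3.04 kb and Id4 +1.67 kb, and the depth of the libraries there is unknown. A near match did lie in a peak at Id1: the site Id1 -0.9 kb, listed by DMSO QESEQ alone, held GGCGTC, 5 bases and GTCTG. The search for GGCGCC did not count it. The share of this looser form over all DMSO sites was not computed.

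Over the genome, 11 of the 169 matches (6.51%) lay in DMSO sites, which cover 0.566% of the genome. Those 11 matches were in 11 sites (0.0357% of the DMSO sites), of which 4 (36.4%) were the Id sites above. The form was taken from these 4 Id sites, so the 6.51% and the 36.4% were partly fixed by that choice. The 0.566% counts all sequence, whatever its base composition. The nearest coding starts to the other 7 sites were those of Ssbp2 (112 bp), Skil (351 bp), Msx2 (3087 bp), Gclc (3639 bp), Exoc4 (19929 bp), Tcf7l2 (111331 bp) and Med13l (525701 bp). Of the 11 sites, 6 were common DMSO sites and 4 were called in both IWR-1 lists, 2 of them at the Id genes and the others near Ssbp2 and Gclc. Both IWR-1 lists had a call at 170 of the 661 DMSO sites with GGCGCC and at 10.6% of all DMSO sites.

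The other distances searched, from 0 to 12 bases, gave no Id site. With 4 bases between them the arrangement was found in 1 DMSO site, with 6 in 6 sites and with 12 in 26 sites, none of them in the Id windows. In windows of equal width 2 kb to either side of every DMSO site, 2 of 61590 held the 5-base form, 1 the 6-base form and 19 the 12-base form. The 5-base form was chosen because it was seen at the 4 Id sites, and without these it was in 7 DMSO sites. The 6-base and 12-base forms were, like it, in more sites than windows, although the windows outnumber the sites, so the 5-base form did not stand alone in this.

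**Figure D1:**
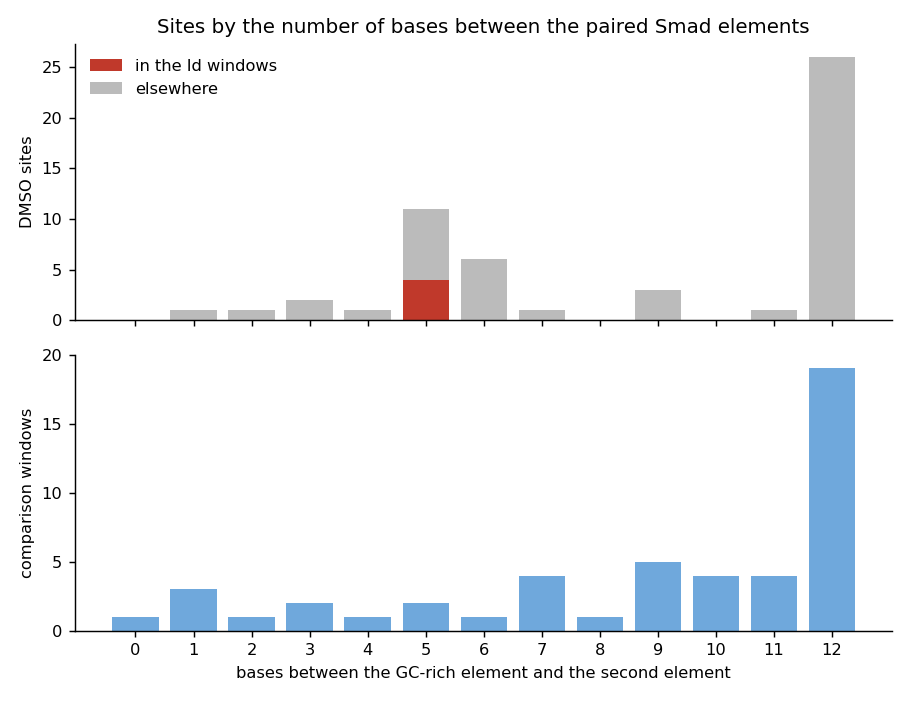
Number of DMSO sites (upper panel, Id windows in red) and of windows of equal width 2 kb beside the sites (lower panel) with GGCGCC and GTCTG, by the number of bases between them. At 5 bases there were 11 DMSO sites, 4 of them at Id genes, and 2 of the 61590 windows, and at 12 bases 26 sites and 19 windows.

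Across the 4 windows the 21 DMSO sites were spread unevenly. Id1 had 8, Id2 had 4, Id3 had 7 and Id4 had 2. The median of the short coding genes was 3, and 12.4%, 43.5%, 17.5% and 69.6% of them had at least as many sites as Id1, Id2, Id3 and Id4. None of the 4 counts therefore lay outside those of other genes. The density was 2.59 DMSO sites per 100 kb in the Id windows and 1.13 in the genome. At least 1 common DMSO site was in each Id window, and 60.1% of the short coding genes had one. Of the 21 sites, 14 were distal, lying over 10 kb from the gene body: 7 at Id1, 1 at Id2, 4 at Id3 and 2 at Id4.

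**Figure D2:**
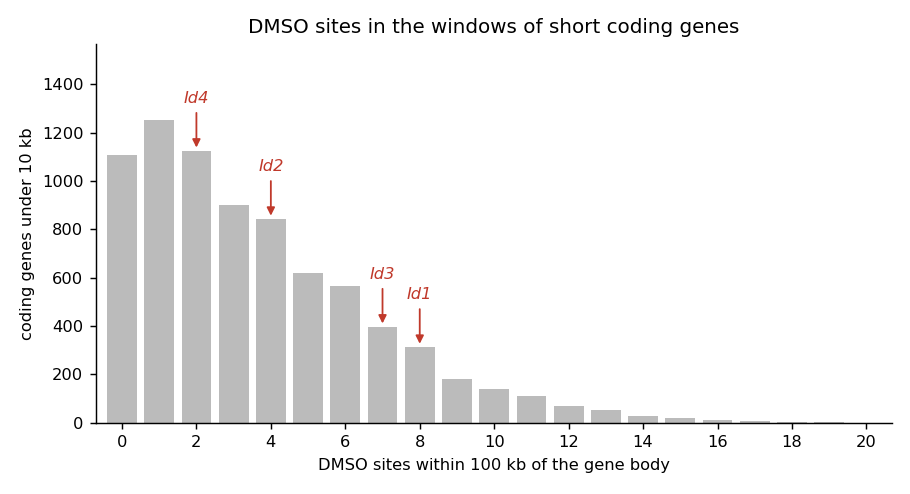
Number of coding genes with a body under 10 kb (vertical axis) by the number of DMSO sites within 100 kb of the body (horizontal axis, drawn up to 20). Arrows mark the Id genes, which had 8 (Id1), 4 (Id2), 7 (Id3) and 2 (Id4) sites.

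**Figure D3:**
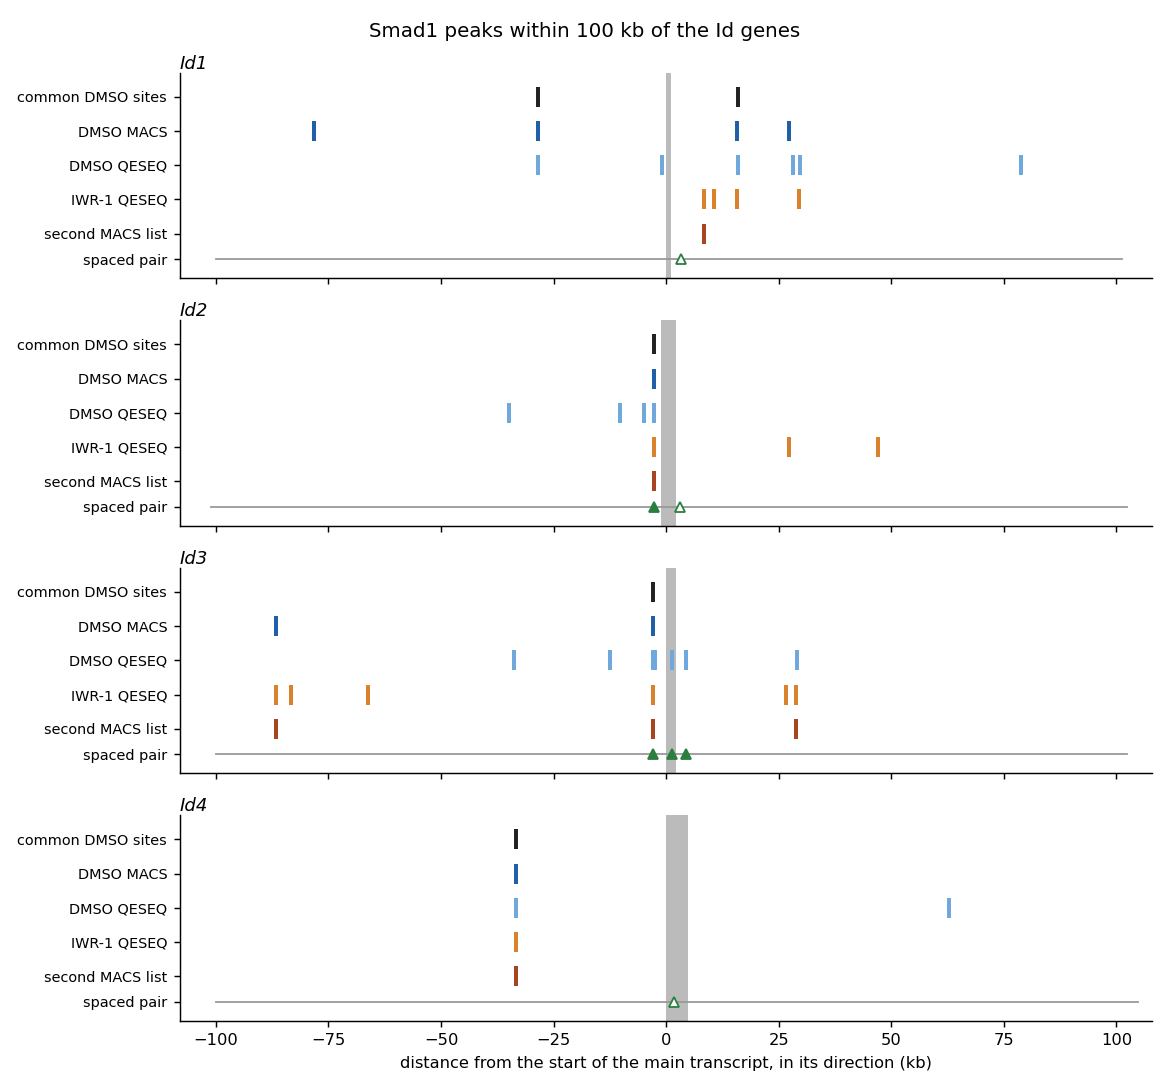
Centres of the peaks of each list in the 4 Id windows, in kb from the start of the main transcript and in its direction. The grey band is the gene body, the thin line the window, and triangles mark GGCGCC and GTCTG with 5 bases between them, filled where a DMSO site covers them. Id4 has its common DMSO site at -33.4 kb and no peak near the gene.

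The DMSO MACS peak with the highest score in the 4 windows was distal and belonged to the Id4 window. MACS gave a score to 8 of the 21 sites, and the 13 listed by QESEQ alone have none and could not be ranked. It lay at -33.4 kb from the start of Id4, at chr13:48227669-48228055, in introns of the antisense gene A330033J07Rik and the lincRNA Gm36346, with the start of Id4 as the nearest coding start. It was a common DMSO site with a MACS score of 408, above 98.2% of the DMSO MACS peaks, on a scale that ranks peaks within a list and starts at 50.0. Only 4.24% of the short coding genes had a peak of that score or higher in their windows. The IWR-1 QESEQ list covered 94.1% of the site, and the second MACS list had a peak there with a score of 147, above 92.7% of that list. Of the 387 bases of the site 67.2% were G or C. It held 2 copies of GGCGCC and 1 of GGAGCC and no adenine run.

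Sequences of 4 distal sites follow on the plus strand of mm10: the distal site with the highest score at Id4 and at Id3, the only distal site at Id2, and the first site of the distal cluster at Id1. That with the highest score at Id1, at -28.5 kb, lies in a UTR and is shown further on by its paired elements alone. Each stretch is the 200 bases of the site, outside UTRs, that hold the most marked bases, and need not be its middle. The 4 Smad elements searched were the GC-rich words GGCGCC and GGAGCC, the palindrome GTCTAGAC and the Smad-binding word CAGACA. Capitals mark these on either strand, and runs of at least 7 A or T.
Id4 -33.4 kb, chr13:48227831-48228030: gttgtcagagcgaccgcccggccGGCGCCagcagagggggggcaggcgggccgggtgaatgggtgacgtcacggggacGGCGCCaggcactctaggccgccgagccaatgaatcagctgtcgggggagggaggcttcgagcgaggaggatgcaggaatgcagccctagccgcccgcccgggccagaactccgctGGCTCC
Id3 -86.6 kb, chr4:136056759-136056958: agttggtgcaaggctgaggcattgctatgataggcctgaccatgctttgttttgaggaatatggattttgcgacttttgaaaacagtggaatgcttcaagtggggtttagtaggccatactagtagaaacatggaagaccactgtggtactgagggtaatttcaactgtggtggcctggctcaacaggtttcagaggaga
Id2 -35.0 kb, chr12:25130967-25131166: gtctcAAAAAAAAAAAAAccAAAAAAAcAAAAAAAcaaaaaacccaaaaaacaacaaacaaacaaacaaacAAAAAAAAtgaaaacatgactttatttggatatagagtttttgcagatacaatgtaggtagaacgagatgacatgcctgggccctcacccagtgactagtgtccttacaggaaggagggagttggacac
Id1 +27.3 kb, chr2:152763438-152763637: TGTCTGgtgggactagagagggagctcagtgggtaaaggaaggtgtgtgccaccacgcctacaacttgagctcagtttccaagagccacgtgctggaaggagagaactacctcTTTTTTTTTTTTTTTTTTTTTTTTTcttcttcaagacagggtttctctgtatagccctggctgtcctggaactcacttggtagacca

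The Id4 stretch carried both GGCGCC copies, and the copy followed by AGGC was also in the sites Id2 -2.7 kb and Id3 -2.7 kb. GGCGCC followed by AGGC was in 21 of the 30795 DMSO sites (0.0682%), and 3 of those were these Id sites. The Id4 stretch also held TGACGTCA, the cAMP response element, which was in 90 DMSO sites (0.292%) and in 1 other Id site, Id1 -0.9 kb. Both words were searched after the sequences had been seen.

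Of the 14 distal sites, 3 had a CAGAC element within 30 bp of a GC-rich element (21.4%, 95% exact interval 4.66–50.8%), against 3.71% of all DMSO sites and 3 of 28 windows 2 kb to either side of the distal sites. The intervals given with shares cover counting error over sites and nothing else. These 3 pairs are shown on the plus strand with both elements in capitals, the first as the bare 16 bases because it lies in a UTR.
Id1 -28.5 kb, chr2:152707756-152707771: GGCTCCagcgaGTCTG
Id3 -33.8 kb, chr4:136109523-136109582: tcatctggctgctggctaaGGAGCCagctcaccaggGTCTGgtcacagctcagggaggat
Id4 -33.4 kb, chr13:48227813-48227871: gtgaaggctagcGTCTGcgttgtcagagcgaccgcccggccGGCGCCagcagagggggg

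The pair at Id1 -28.5 kb had 5 bases between its elements, as in the 7 stretches with GGCGCC above, with GGCTCC, the other strand of GGAGCC, in the place of GGCGCC. This form was in 15 DMSO sites (0.0487%). It was searched after the sequences had been seen. Other distances, and windows beside the sites, were not searched for it. The site was a common DMSO site with a MACS score of 78.2, above 72.8% of the list and the highest at Id1. It lay in the last exon of H13, exon 12, in the UTR, at chr2:152707528-152707953, and 67.6% of its bases were G or C. It held a run of 9 A near its edge, centred 199 bp from the centre of the site. Neither IWR-1 list had a call there. H13 encodes a signal peptide peptidase of the endoplasmic reticulum. The pair at Id3 -33.8 kb had 11 bases between its elements, and that site was listed by DMSO QESEQ alone, held a run of 28 T and had no IWR-1 call. The pair at Id4 -33.4 kb had 24 bases between its elements.

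The proximal sites were rich in the same elements. Of 7 proximal sites, 6 held GGCGCC and 5 held a pair, where 2.15% of all DMSO sites held GGCGCC. Between 46.9% and 74.0% of the bases of the proximal sites were G or C. GGCGCC and the pair were not counted in windows beside them, and a link with base composition was not tested. Of 14 distal sites, 1 held GGCGCC (7.14%, 0.181–33.9%), the Id4 site. Of all 21 sites, 7 held GGCGCC. The 3 that were common DMSO sites (Id2 -2.7 kb, Id3 -2.7 kb and Id4 -33.4 kb) were called in both IWR-1 lists, and the 4 listed by QESEQ alone (Id1 -0.9 kb, Id2 -4.9 kb, Id3 +1.4 kb and Id3 +4.4 kb) were called in neither. At Id2 -2.7 kb the score was 148 in the DMSO MACS list (above 95.4% of it) and 96.6 in the second (above 86.4%). At Id3 -2.7 kb the scores were 80.3 (above 75.4%) and 53.3 (above 17.5%). A call does not show that binding was unchanged. Over the genome, 261 of 661 DMSO sites with GGCGCC (39.5%) had an IWR-1 QESEQ call. With or without GGCGCC, the share was 37.1% of the DMSO sites that hold a common site and 17.1% of those listed by QESEQ alone.

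Any of the 4 Smad elements was present in 9 of the 14 distal sites (64.3%, 35.1–87.2%). The share was 47.6% over all DMSO sites and 50.0% (14 of 28) in the windows beside the distal sites, both within that interval. GGAGCC was in 6 distal sites (42.9%, 17.7–71.1%), against 18.8% of all DMSO sites and 32.1% of the windows beside them. CAGACA was in 4 (28.6%, 8.39–58.1%), against 35.8% of all DMSO sites, and GTCTAGAC was in none, against 0.403%.

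Of the features searched, adenine runs were the most frequent in the distal sites. A run of at least 7 A on either strand was in 11 of 14 (78.6%, 49.2–95.3%), near the 81.9% of all DMSO sites, whereas 8 of 28 windows beside them had one (28.6%, 13.2–48.7%). Of the 7 proximal sites, 2 had a run. The longest was 40 bases at Id3 -12.5 kb, followed by 39 at Id1 +29.7 kb and 28 at both Id1 +15.8 kb and Id3 -33.8 kb. Of the 9 distal sites with a Smad element, 8 also had a run, and the exception was the Id4 site. Repeat-masked bases made up between 9.86% and 73.7% of the 11 sites with a run, and 15.5%, 45.4% and 47.7% of the 3 without one.

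**Figure D4:**
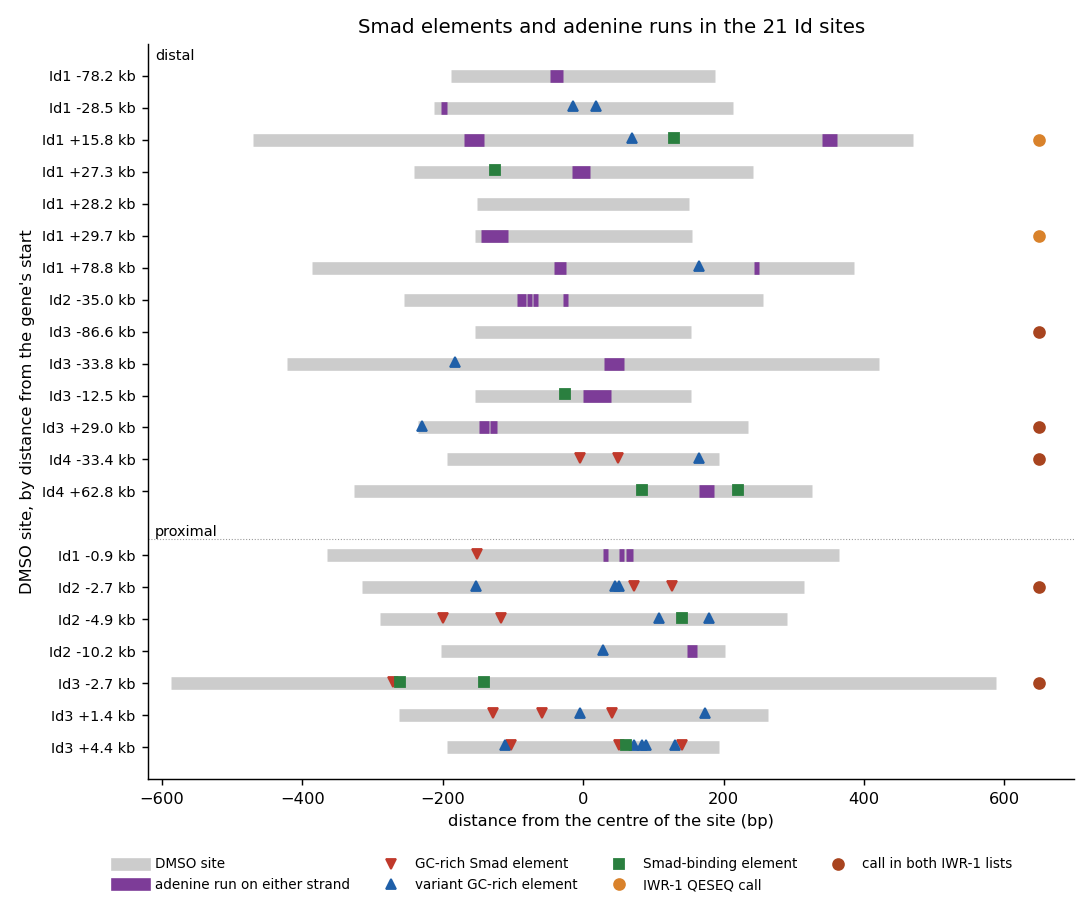
The 14 distal and 7 proximal DMSO sites drawn to scale around their centres (bp), with adenine runs on either strand in purple, GGCGCC as red triangles, GGAGCC as blue triangles and CAGACA as green squares. Dots on the right mark IWR-1 QESEQ calls (light) and calls in both IWR-1 lists (dark). Runs are in 11 of the 14 distal sites, and GGCGCC in 6 of the 7 proximal sites and 1 distal site.

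Distal sites formed 1 cluster, defined as 2 or more distal sites with gaps of at most 10 kb. It held 3 DMSO sites 27.3, 28.2 and 29.7 kb downstream of the start of Id1, spanned 2754 bp at chr2:152763325-152766078 and had gaps of 485 and 1175 bp. The first 2 sites lay in intron 4 of Cox4i2, which encodes an isoform of a cytochrome c oxidase subunit, and the third lay beyond that gene. MACS alone listed the first site, with a score of 62.6 (above 43.4% of the list), and QESEQ alone listed the others, so the cluster held no common DMSO site. The first site held CAGACA and a run of 25 T at its centre, the middle site held neither an element nor a run, and the third held a run of 39 A and no element. The IWR-1 QESEQ list covered 100.0% of the third site, and neither IWR-1 list had a call at the others.

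The other common distal site lay between the cluster and Id1, 15.8 kb downstream of its start and 2073 bp from the start of Cox4i2, which was the nearest. Its MACS score was 53.1, above 12.9% of the list. It held GGAGCC and CAGACA in its right part, flanked by runs of 28 and 22 T. The IWR-1 QESEQ list covered 37.8% of it and the second MACS list had no peak there. The remaining distal sites at Id1 had no IWR-1 call. That at -78.2 kb was listed by MACS with a score of 52.6 and held a run of 19 A and no element, and that at +78.8 kb was listed by QESEQ in intron 2 of Bcl2l1 and held GGAGCC and a run of 18 A. Bcl2l1 encodes an inhibitor of apoptosis.

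At Id2, Id3 and Id4 the distal sites stood alone. The distal site at Id2 -35.0 kb lay in an exon of the lincRNA Gm17746, was listed by QESEQ alone, and held 4 runs of A, the longest of 13, no Smad element and no IWR-1 call. At Id3 -86.6 kb, 3466 bp from the start of Rpl11, a MACS peak with a score of 54.4 (above 17.3% of the list) held no Smad element and no run. It was called in both IWR-1 lists, with a score of 63.9 in the second MACS list. It held CTTTGTT, a word bound by TCF factors, which act in Wnt signalling. CTTTGAT or CTTTGTT was in 2 of the 21 Id sites (9.52%, 1.17–30.4%), the other being Id2 -10.2 kb, and in 19.9% of all DMSO sites.

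The remaining distal sites at Id3 and Id4 were listed by QESEQ alone. The site at Id3 +29.0 kb overlapped exon 1 of E2f2, a cell cycle transcription factor gene, with its centre 77 bp from that start. It held GGAGCC and a run of 15 A and was called in both IWR-1 lists, with a score of 52.2 in the second MACS list. The site at Id3 -12.5 kb held CAGACA beside its run of 40 A, and that at Id4 +62.8 kb held 2 copies of CAGACA and a run of 22 A, and neither had an IWR-1 call. Of the 14 distal sites, 5 had the start of the Id gene as the nearest coding start, and 7 lay in an annotated gene.

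An IWR-1 QESEQ call was present at 7 of the 21 DMSO sites (33.3%, 14.6–57.0%), where the share over all DMSO sites was 24.8%. The second MACS list had a call at 5 (23.8%, 8.22–47.2%) against 18.0%, and these 5 were called in both lists, against 10.6%. All 3 background shares lay within the intervals. The share was 5 of 14 for distal sites (35.7%, 12.8–64.9%) and 2 of 7 for proximal sites (28.6%, 3.67–71.0%). Of the 5 common DMSO sites, 4 had an IWR-1 QESEQ call (80.0%, 28.4–99.5%), against 37.0% of all common DMSO sites, and the exception was Id1 -28.5 kb. Of the 13 sites listed by QESEQ alone, 2 had a call, where 17.1% of such sites had one over the genome. Calls were at 3 of the 11 distal sites with a run (27.3%, 6.02–61.0%) and at 2 of the 3 without one (66.7%, 9.43–99.2%). These intervals overlap and both hold the 24.8% of all DMSO sites. The difference between the 2 shares was not tested. The share by run over all DMSO sites was not computed.

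The IWR-1 QESEQ list also had 7 calls in the Id windows that overlapped no DMSO site, of 14 (50.0%, 23.0–77.0%), where the share over the whole list was 52.9%. They lay at Id1 +8.4 and +10.7 kb, Id2 +27.3 and +47.0 kb, and Id3 -83.3, -66.2 and +26.6 kb, and the Id4 window had none. The call at Id1 +8.4 kb was the only one of the 7 in both IWR-1 lists, with a score of 58.0 in the second MACS list, above 36.2% of it. It held GGAGCC and lay 6.90 kb from the nearest DMSO site. A Smad element was in 3 of the 7, GGCGCC in none, and a run of at least 7 A in 4. The calls at Id3 -83.3 and +26.6 kb lay 2.90 and 1.96 kb from the DMSO sites near Rpl11 and E2f2 described above.

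Genes of the same pathway were read in the same windows, for which 68.1% of all coding genes had a common DMSO site and 24.8% of all DMSO sites had an IWR-1 QESEQ call. The called shares of the 3 lists were near the latter. The E protein genes Tcf3, Tcf4 and Tcf12, whose products Id proteins bind, all had a common DMSO site in their windows, and 4 of their 16 DMSO sites (25.0%) had an IWR-1 QESEQ call. Of 8 helix-loop-helix genes of early mesoderm, 4 had a common DMSO site (Tal1, Lyl1, Mesp1 and Mesp2, the last 2 in overlapping windows), and 7 of 31 sites (22.6%) were called, counting shared sites once for each gene. Of 8 other BMP–Smad target and feedback genes, 6 had a common DMSO site, and 8 of 36 sites (22.2%) were called. The median number of DMSO sites per window was 5.00 for the E protein genes, 4.00 for both other lists and 5.50 for the Id genes. The gene bodies of Tcf4 and Tcf12 are far longer than those of the Id genes, which widens their windows.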

How the data were processed

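Smad1 ChIP–seq and input libraries of 4 samples were used as the peak lists that the authors deposited. The labels name CASAVA 1.8, Bowtie2 2.1.0, MACS 1.0.1 and mm10. The authors aligned single-end reads, removed duplicates and called peaks with MACS (tag size 51, p-value cutoff 1e-05) and QESEQ (p-value cutoff 0.05). The MACS score of each peak was deposited by the authors and ranks peaks within a list. Depth per peak is unknown, since read counts are not part of the lists. Positions are counted from 1.

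DMSO sites are merged MACS and QESEQ peaks. Overlap counted from 1 bp, and 5 peaks outside chromosomes 1 to 19, X and Y were left out of the genome counts. Shares carry 95% exact binomial (Clopper–Pearson) intervals. Motifs were searched on both strands of GRCm38, the assembly behind mm10, over whole sites. GGCGCC is its own reverse complement, and CAGACA and GTCTAGAC can share bases with CAGAC.

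The genes, gene lists and rules were chosen with earlier results of these data known. Sites described singly were cluster members, the highest scoring distal site per window, distal common sites, distal sites called in both IWR-1 lists and, beyond that rule and chosen with their values seen, the other distal sites. The 200 bases printed for a site are those with the most marked bases outside UTRs, not the central part that the rule named. Alternatives varied window, callers, score, merging, overlap, cluster gap, distal limit, elements and run length.

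Scripts ran in Python 3.11.15 (scipy 1.17.1, numpy 2.4.6, matplotlib 3.10.9, pysam 0.24.0). On 10000 simulated sites the overlap, element, run and spacing steps each gave the planted answer in all 10000.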

Additional observations from a re-analysis of the deposited data

How the results depend on the processing

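With windows of 200 kb the DMSO sites rose from 21 to 35. With common DMSO sites alone there were 5, of which 80.0% had an IWR-1 QESEQ call, no distal cluster (0), a Smad element in 100.0% and an adenine run in 33.3% of the 3 distal sites. This setting read the sequence of the common interval, which is narrower than the merged DMSO site. At Id1 -28.5 kb that interval cuts the run of 9 A, which the merged site holds. MACS peaks alone gave 8 sites, and a MACS score of at least 100 gave 2, both called (100.0%), while a score of at least the median gave a called share of 75.0%, or 3 of 4. Using all 5 lists gave 3 distal clusters, 1 at Id1 and 2 at Id3. GGCGCC alone was in 7.14% of the distal sites, and the central 200 bp held a run in 42.9%. The second MACS list, and both IWR-1 lists together, each gave 1 call without a DMSO site in place of 7. The other planned settings for these results, 20 in number, were counted as giving values like those reported, but not all were close. Among them, the central 200 bp held a Smad element in 35.7% of the distal sites (5 of 14), against 64.3% over whole sites. The counts in single windows moved in 15 settings and stayed close in 13: with 200 kb the sites at Id3 went from 7 to 13 and at Id4 from 2 to 6, with 50 kb Id4 had 1, and with MACS peaks, common sites or a score of at least 100 each window had 0 to 4. For GGCGCC and GTCTG, settings chosen after seeing the data gave 0 Id sites with 4 bases between them and 0 with 6. They gave 5 with GGCGNC in place of GGCGCC, the added site being Id1 -0.9 kb, and 4 with GTCT in place of GTCTG. Window, list, element and stretch changes act by construction on what is counted. No paired analysis was possible because each treatment had 1 ChIP library. Without read counts, a site missing from a list cannot be told from one just under its cutoff.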
